A study of Homo sapiens with 4 samples.

Results

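The genes followed were 10 genes of the cytoskeleton and of the epithelial or mesenchymal state of a cell. They were found by their Ensembl gene IDs, which are VIM (ENSG00000026025), CDH1 (ENSG00000039068), KRT8 (ENSG00000170421), KRT18 (ENSG00000111057), ACTB (ENSG00000075624), ACTG1 (ENSG00000184009), TUBA1B (ENSG00000123416), TUBB (ENSG00000196230), TMSB10 (ENSG00000034510) and LGALS1 (ENSG00000100097). All 10 were present among the 60676 IDs listed, and all 10 passed the expression filter that left 41622 IDs for testing. The study asked what 2 variants of SRP9 do in the nucleus. SRP9 belongs to the signal recognition particle, where it holds the Alu domain of 7SL RNA together with SRP14. RNA came from MiaPaCa, an established human pancreatic cancer cell line, electroporated with a vector for SRP9 variant 1 or variant 2. Both constructs carried a nuclear localisation signal and a FLAG tag, the vector also encoded the green fluorescent protein acGFP1, and the cells were selected with Geneticin and sorted for acGFP1. The 4 libraries are RIP variant 1 and RIP variant 2, made from the RNA pulled down with the FLAG-tagged SRP9 (RNA immunoprecipitation), and input variant 1 and input variant 2, made from whole-cell RNA of the same experiments. Every library thus came from cells transfected with a tagged nuclear SRP9, and no precipitation without the tagged protein was analysed here. There was 1 library per group and no replicate.

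The cytoskeleton is built from actin filaments, microtubules and intermediate filaments. ACTB and ACTG1 encode the cytoplasmic beta and gamma actins, TUBA1B and TUBB an alpha and a beta tubulin that pair in microtubules, and KRT8 and KRT18 the keratin partners of simple epithelia. VIM encodes vimentin, the intermediate filament of mesenchymal cells. CDH1 encodes E-cadherin, the adhesion protein of epithelial adherens junctions, whose loss together with gain of vimentin is the usual mark of an epithelial to mesenchymal transition. TMSB10 encodes a thymosin that binds actin monomers, and LGALS1 the galactose-binding lectin galectin-1, which is often high in mesenchymal cells.

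Total counts were 3921361 and 5211354 in RIP variants 1 and 2, against 50454080 and 58815384 in their inputs. Despite the lower depth, more IDs had a count above 0 in RIP. They numbered 44658 and 51589 in RIP variants 1 and 2, against 28372 and 26720 in input variants 1 and 2. Levels below are CPM, counts scaled to a common library total, with 95% exact Poisson intervals where given, which cover counting error only. Transcript lengths were not used here, so levels are compared between libraries and not between genes.

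The 10 genes together took a much smaller share of the RIP libraries than of the inputs. Their summed share was 0.281% (95% exact binomial interval 0.275% to 0.286%) for RIP variant 1 and 0.292% (0.288% to 0.297%) for RIP variant 2, against 2.23% (2.22% to 2.23%) in input variant 1 and 2.17% (2.17% to 2.18%) in input variant 2. CDH1 made up 1.82% and 1.95% of the 10 genes' counts in RIP variants 1 and 2, and 0.0020% and 0.00012% in the inputs. CDH1 thus had more counts in RIP despite the lower depth. Each of the other 9 genes took a smaller share of each RIP library than of its input.

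**Figure D1:**
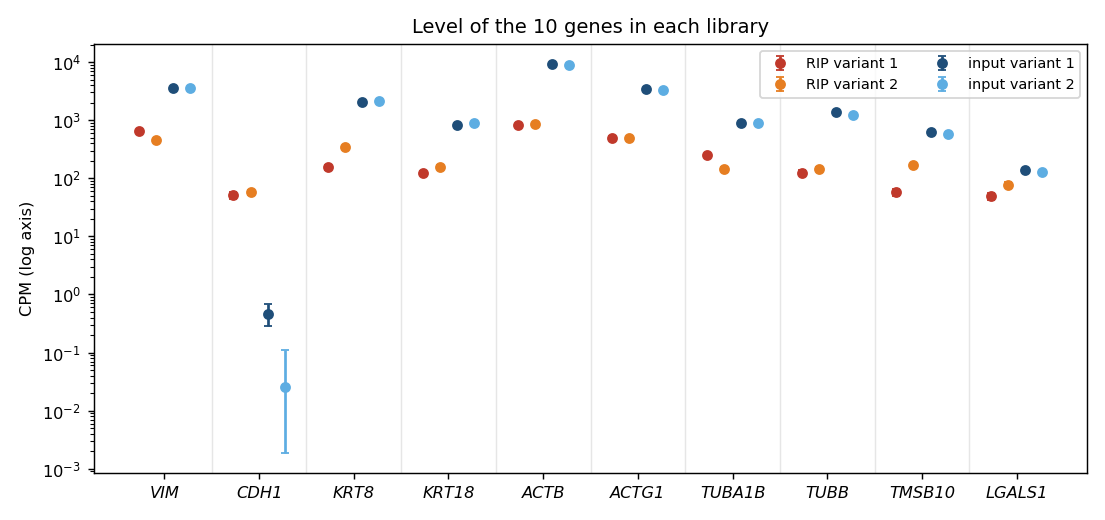
Level of each of the 10 genes in RIP variant 1, RIP variant 2, input variant 1 and input variant 2, in CPM on a log axis. Points are single libraries and bars 95% exact Poisson intervals. CDH1 lies at 51.0 and 57.1 CPM in the RIP libraries, far above its inputs, while the other genes lie below their inputs in both RIP libraries.

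Taking both constructs together, RIP was set against input with edgeR's quasi-likelihood test on all 41622 IDs, with the constructs as the 2 samples of each fraction and TMM scaling, which takes most genes as equal between libraries. After this scaling the median log2 fold change over tested IDs was 3.65, so that premise did not hold. Log2 fold changes and log2 ratios below use TMM unless stated, while CPM and their ratios use library totals, so their sizes differ. Calls were made at an adjusted p (Benjamini-Hochberg) below 0.05. Of the 10 genes, 9 were lower in RIP and 1, CDH1, was higher. The call of CDH1 carries no support of its own, since CDH1 passed the expression filter through its RIP libraries. Of all tested IDs, 15.8% were lower and 49.5% higher. These shares depend strongly on how abundant an ID is in the inputs. The 20595 higher IDs included 18088 whose inputs summed to at most 50 counts. Such IDs could hardly enter the test except through RIP. A fit of only the 15436 IDs with at least 50 counts in each input gave 3418 higher and 3655 lower. Of the 93 IDs whose inputs summed to over 100000 counts, where VIM, KRT8, ACTB, ACTG1 and TUBB fall, 91.4% were lower. Of the 920 IDs with input sums of 20000 to 100000, which hold KRT18, TUBA1B and TMSB10, 99.8% were lower, and of the 3443 with 5000 to 20000, which hold LGALS1, 92.6% were. The lower level of the 9 genes is therefore the rule for IDs of their abundance. RIP and input of 1 variant come from 1 experiment per the labels, and with the construct as replicate block 8289 IDs (19.9%) were higher and 5379 (12.9%) lower, with the calls of all 10 genes unchanged.

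VIM measured 663 (RIP variant 1) and 456 CPM (RIP variant 2), against input levels of 3533 (variant 1) and 3643 CPM (variant 2). The log2 fold change was -3.86 (edgeR adjusted p = 0.00060), with log2 ratios of -3.59 for variant 1 and -4.17 for variant 2. On library totals the log2 fold change was -2.66. In its range of input counts VIM ranked 46th of 93 from the lowest fold change, in the middle of the IDs of like abundance. In the same range ACTG1 (45th) lay close to it, while KRT8 (28th), TUBB (23rd) and ACTB (20th) lay lower. In the range below, TUBA1B ranked 385th of 920, TMSB10 286th and KRT18 197th. RefSeq lists 1 gene that overlaps VIM, VIM-AS1, and the strand setting of the counting was not given in the sources used here, so reads of VIM-AS1 may have been counted for VIM.

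The keratins behaved alike in the inputs and less so in RIP. KRT8 stood at 153 CPM (interval 141 to 166) in RIP variant 1 and at 350 CPM (334 to 366) in RIP variant 2, against input levels of 2052 and 2125 CPM. KRT8 was lower in RIP (log2 fold change -4.23, edgeR adjusted p = 0.0011), and RIP variant 1 lay lowest. KRT18 stood at 124 CPM (114 to 136) with RIP variant 1 and 156 CPM (146 to 168) with RIP variant 2, against input levels of 823 and 894 CPM. The log2 fold change of KRT18 was -3.79 (edgeR adjusted p = 0.00060). RefSeq names 52 KRT8 and 68 KRT18 pseudogenes and lists the genes themselves as overlapping, so these genes can have exchanged reads with each other and with their copies.

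CDH1 went the other way and was the only one of the 10 genes with hardly any input reads. RIP variant 1 held 200 counts of it and RIP variant 2 held 297.5, against 23 in input variant 1 and 1.5 in input variant 2. These are RIP levels of 51.0 CPM (44.2 to 58.6) and 57.1 CPM (50.8 to 64.0), against input levels of 0.456 CPM (0.289 to 0.684) and 0.0255 CPM (0.0018 to 0.109). Reads counted for CDH1 were thus detected at a low level in input variant 1, where a count of 0 would allow 0.0595 CPM. They were at the detection limit in input variant 2, where a count of 0 would allow 0.0510 CPM. Reads of genes that overlap CDH1, named below, may be among them. Vimentin and both keratins were abundant in both inputs. In bulk RNA, fewer cells with a transcript and less of it per cell cannot be told apart.

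The RIP level of CDH1 was 112 times that of the input with variant 1 (95% counting interval 72.5 to 181) and 2238 times with variant 2 (461 to 13949.9), both on library totals. The fitted log2 fold change was 6.60 (edgeR adjusted p = 0.0060, and 0.0047 with the replicate block). It was no longer called without RIP variant 1 (edgeR adjusted p = 0.10) or without RIP variant 2 (edgeR adjusted p = 0.099), with log2 fold changes of 6.64 and 6.53. Without input variant 1 the log2 fold change was 9.21 and without input variant 2 it was 5.40, both still called, so its size rests on which input is used. CDH1 passed the expression filter through its RIP libraries, since 1 input alone exceeded the limit of 0.359 CPM and 2 libraries were needed. Its p-values and its higher call therefore give no support for an enrichment. Of the 21824 tested IDs whose inputs summed to at most 50 counts, 82.9% were called higher and 0 lower. IDs with so few input counts could hardly enter the test except through RIP, so that share was largely set by the filter. The ranks below compare CDH1 with IDs chosen largely in the same way. They describe RIP values that the filter also used, and give no support for an enrichment. The log2 fold change of CDH1 ranked 6534th of 21824 from the lowest, below their median of 8.61, and the fitted folds of IDs at 0 in the inputs depend on the prior count. With single constructs the log2 ratio of CDH1 exceeded 54.0% of these IDs with variant 1 and 95.4% with variant 2. Per ID and not per length, the RIP level of CDH1 was high within that range. These IDs had a median of 7.61 CPM (RIP variant 1) and 7.68 CPM (RIP variant 2), and 348 of them (1.59%) were at least as high as CDH1 in both RIP libraries. RefSeq lists 2 genes within or across CDH1, the pseudogenes FTLP14 and RNA5SP429, whose reads may have been counted with it.

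**Figure D2:**
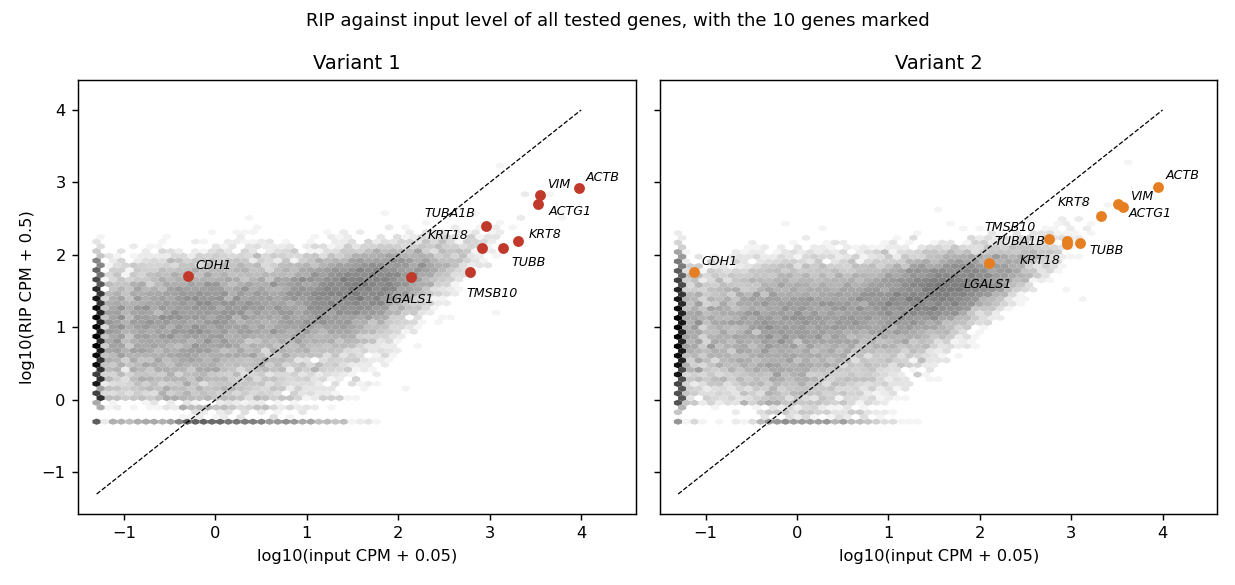
RIP level against input level of all tested IDs, as log10 of CPM with a small offset, with variant 1 on the left and variant 2 on the right. Grey shading gives the number of IDs on a log scale, coloured points are the 10 genes, and the dashed line marks equal CPM. CDH1 lies on the upper edge of the IDs with little input, and the other 9 genes lie below the line at the right end, among the most abundant input RNAs.

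Both actins fell in RIP. ACTB measured 833 (RIP variant 1) and 874 CPM (RIP variant 2), against input levels of 9429 and 8956 CPM, which made it the 2nd and 3rd most counted ID of the inputs. It had the lowest fold change of the 10 genes (log2 fold change -4.61, edgeR adjusted p = 0.00059), and the constructs gave nearly the same ratio, -4.68 and -4.53. ACTG1 measured 502 (RIP variant 1) and 497 CPM (RIP variant 2), against input levels of 3384 and 3279 CPM, with a log2 fold change of -3.91 (edgeR adjusted p = 0.00060). Its log2 ratios of -3.93 for variant 1 and -3.90 for variant 2 were the closest pair among the 10 genes. The encoded proteins are almost identical, and RefSeq names 14 ACTB and 21 ACTG1 pseudogenes, so part of the reads may have been divided between copies.

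The tubulins were lower in RIP too. TUBA1B stood at 249 CPM (234 to 265) with RIP variant 1 and 143 CPM (133 to 153) with RIP variant 2, against input levels of 911 and 899 CPM. Its log2 fold change was -3.38 (edgeR adjusted p = 0.00099). TUBB stood at 125 CPM (114 to 137) with RIP variant 1 and 145 CPM (135 to 156) with RIP variant 2, against input levels of 1380 and 1246 CPM, with a log2 fold change of -4.46 (edgeR adjusted p = 0.00060). Lower calls were also made for 99.8% of the IDs in the range of TUBA1B and 91.4% in that of TUBB. RefSeq names 11 TUBB pseudogenes, so part of the TUBB reads may have been divided between copies.

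The actin-binding TMSB10 and the lectin LGALS1 were lower in RIP as well, with the variants further apart than for the actins. TMSB10 stood at 57.4 CPM (50.1 to 65.4) with RIP variant 1 and 168 CPM (157 to 179) with RIP variant 2, against input levels of 613 and 574 CPM, with a log2 fold change of -3.58 (edgeR adjusted p = 0.0030). RefSeq lists 1 gene that overlaps TMSB10, LOC105374836, and names 2 TMSB10 pseudogenes, so reads may have been shared with them. LGALS1 stood at 48.7 CPM (42.0 to 56.1) with RIP variant 1 and 77.3 CPM (70.0 to 85.3) with RIP variant 2, against input levels of 138 and 126 CPM. It had the smallest change of the 9 genes (log2 fold change -2.24, edgeR adjusted p = 0.0027). On library totals its log2 fold change was -1.04. At 1735th of 3443 from the lowest it stood in the middle of the IDs in its range of input counts, whose median was -2.26. LGALS1 also held whole counts in all 4 libraries. Fractions of a read occurred in 7 and 5 of the 10 genes in RIP variants 1 and 2 and in 8 in each input. Of all IDs listed, including those without a count, 13.9% and 18.0% held fractions in RIP variants 1 and 2. In input variants 1 and 2 these were 14.2% and 14.3%.

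**Figure D3:**
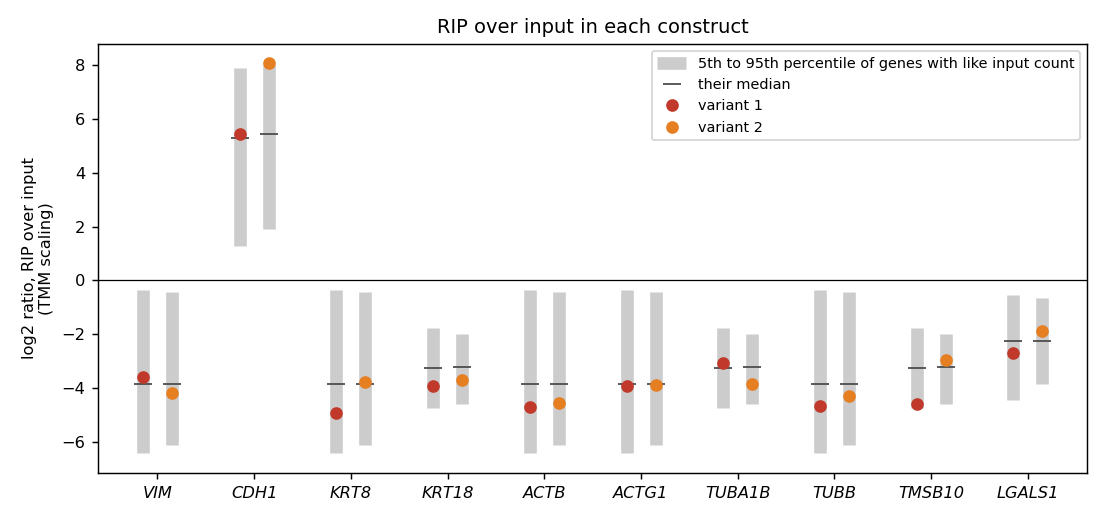
Log2 ratio of RIP over input for each gene with variant 1 and variant 2, on TMM scaling. Grey bars span the 5th to 95th percentile of the tested IDs in the same range of summed input count, and dashes mark their medians. CDH1 lies above 0 with both variants and the other 9 genes lie below 0 with both, and each gene lies within or at the edge of its grey bar.

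Each variant was also set against its own input, without a test. At least 2-fold above the input were 63.1% of tested IDs with variant 1 and 64.4% with variant 2, and CDH1 was the 1 such gene of the 10 with both. At least 2-fold below it were 23.1% and 21.2%, and all the other 9 genes with both. The size of the shift depends on the scaling, and its direction did not for any of the 10 genes. The median log2 ratio of the 10 genes was -3.92 with variant 1 and -3.80 with variant 2, against 3.07 and 3.25 over all tested IDs. Over the 15436 IDs that reached 50 counts in each input the medians were -1.25 and -1.17. On library totals these IDs had medians of -0.07 and 0.03, and the 10 genes -2.73 and -2.59. The 9 lower genes then had CPM in RIP that were lower by a factor of 2.83 (LGALS1) to 13.4 (KRT8) with variant 1, and of 1.63 (LGALS1) to 10.2 (ACTB) with variant 2. When only the 15436 IDs were fitted, with their own scaling and a median log2 fold change of -0.03, the 9 genes were again called lower, with log2 fold changes of -3.49 (ACTB, edgeR adjusted p = 0.00038) to -1.12 (LGALS1, edgeR adjusted p = 0.020). In that fit 23.7% of the IDs were lower.

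The difference between the variants rests on 1 library a side and has no test. In RIP variant 1, 18.7% of tested IDs exceeded RIP variant 2 by 2-fold or more and 22.8% fell below it by as much. Of the 10 genes, 0 exceeded it and 2 fell below it by 2-fold or more. TMSB10 had a ratio of 0.342 (95% counting interval 0.294 to 0.397) of CPM in RIP variant 1 over RIP variant 2, and KRT8 0.439 (0.400 to 0.482). TUBA1B and VIM were the genes furthest in the other direction, with ratios of 1.75 (1.59 to 1.92) and 1.45 (1.38 to 1.54). For ACTG1 and CDH1 the intervals included equality, with ratios of 1.01 (0.953 to 1.07) and 0.893 (0.742 to 1.07). The remaining ratios were 0.630 (LGALS1), 0.795 (KRT18), 0.862 (TUBB) and 0.953 (ACTB).

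RIP differences of 2-fold or more were not rare among IDs of like abundance, but few differed as far as TMSB10. Of the 920 IDs with input sums of 20000 to 100000, 14.3% differed by 2-fold or more between the RIP libraries, as did 20.4% of the 93 above that. TMSB10 lay 19th of 920 from the lowest log2 ratio in its range and KRT8 7th of 93, so TMSB10 was near the end of the spread and KRT8 well toward it. TUBA1B exceeded 87.6% of the IDs in its range and VIM 76.3%.

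The inputs differed far less. For the 9 genes other than CDH1 the ratio of input variant 1 over input variant 2 lay between 0.920 (KRT18) and 1.11 (TUBB). In input variant 1, 14.1% of tested IDs exceeded the other input by 2-fold or more and 10.8% fell below it by as much, while 0% of the IDs with input sums over 20000 did either. CDH1 alone among the 10 genes was over 2-fold apart, 17.9 times higher in input variant 1 (95% counting interval 3.31 to 117), from 23 and 1.5 counts. In its range of input counts, 28.2% of the IDs differed by 2-fold or more between the inputs. While its RIP levels were close, CDH1 thus had a smaller log2 ratio of RIP over input with variant 1 than with variant 2. The difference was -2.60 with a prior count of 2 and -3.42 with a prior count of 0.5. The size of this difference depends on the prior count because input variant 2 held 1.5 counts. The ratio of RIP over input was larger with variant 1 by 2-fold or more for 23.1% of tested IDs and smaller by as much for 29.4%. Of the 10 genes, 0 had a larger and 3 a smaller one, namely CDH1, TMSB10 (-1.65) and KRT8 (-1.14).

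**Figure D4:**
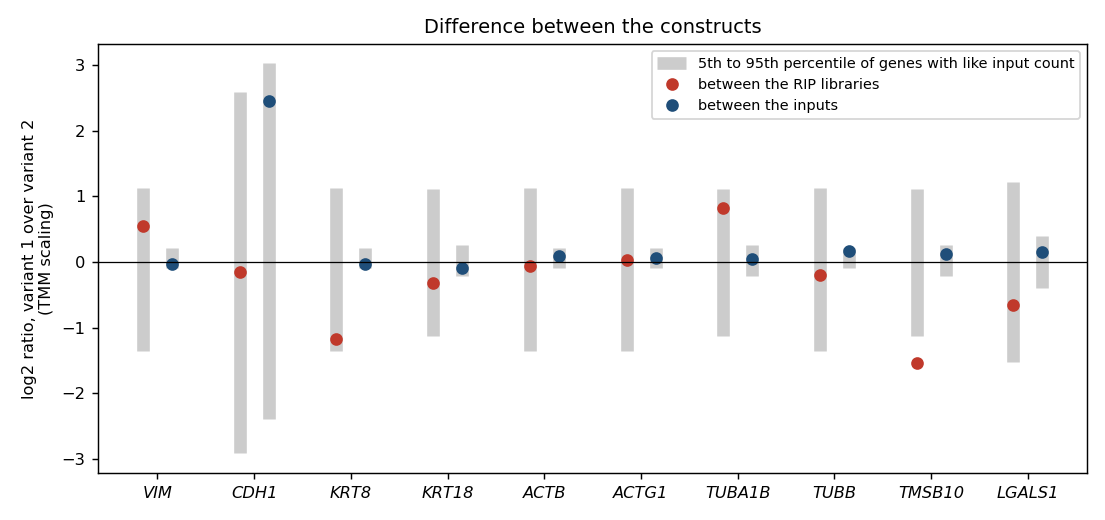
Log2 ratio of variant 1 over variant 2 for each gene, with RIP libraries in red and inputs in blue, on TMM scaling. Grey bars span the 5th to 95th percentile of the tested IDs in the same range of summed input count. TMSB10 (-1.53) and KRT8 (-1.17) lie lowest between the RIP libraries, with TMSB10 below its bar, and between the inputs only CDH1 (2.45) is far from 0.

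Ratios of counts between partner genes within a library do not depend on the scaling of libraries. The balance of vimentin to keratin was nearly the same in both inputs and differed between the RIP libraries. The count ratio of VIM to KRT8 was 4.32 (95% counting interval 3.95 to 4.73) for RIP variant 1 and 1.30 (1.23 to 1.39) for RIP variant 2, against input ratios of 1.72 and 1.71. RIP variant 1 thus lay above its input and RIP variant 2 below. The ratio of VIM to KRT18 was 5.34 (4.84 to 5.88) and 2.92 (2.69 to 3.16) in RIP variants 1 and 2, against 4.29 and 4.07 in the inputs, with the same order. In counts, VIM outnumbered CDH1 by factors of 13.01 and 7.99 in RIP variants 1 and 2, against 7749 (5164 to 12225) and 142848 (29658 to 884662) in the inputs.

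Ratios within the pairs that build 1 filament were lower in both RIP libraries than in their inputs. The ratio of ACTB to ACTG1 was 1.66 (1.57 to 1.76) for RIP variant 1 and 1.76 (1.68 to 1.85) for RIP variant 2, against input ratios of 2.79 and 2.73. The ratio of TUBB to TUBA1B was 0.502 (0.449 to 0.560) and 1.02 (0.917 to 1.13) in RIP variants 1 and 2, against 1.51 and 1.39 in the inputs. KRT8 to KRT18 gave 1.23 (1.09 to 1.39) for RIP variant 1 and 2.23 (2.06 to 2.43) for RIP variant 2, against input ratios of 2.49 and 2.38. In each pair the partner with more input counts outnumbered the other by less in RIP than in the input, or was outnumbered (TUBB in RIP variant 1), but for the keratins with variant 2 the difference was within counting error. The median log2 fold change of tested IDs also fell with input counts. It was -2.26 for input sums of 5000 to 20000, -3.22 for 20000 to 100000 and -3.76 above 100000. KRT8, TUBB and both actins lay in the highest range, and KRT18 and TUBA1B in the range below. For the actins the RIP libraries lay close together. For the tubulins and keratins RIP variant 1 was further from its input than RIP variant 2. Counting error is the only error known here, since no group has a second library.

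**Figure D5:**
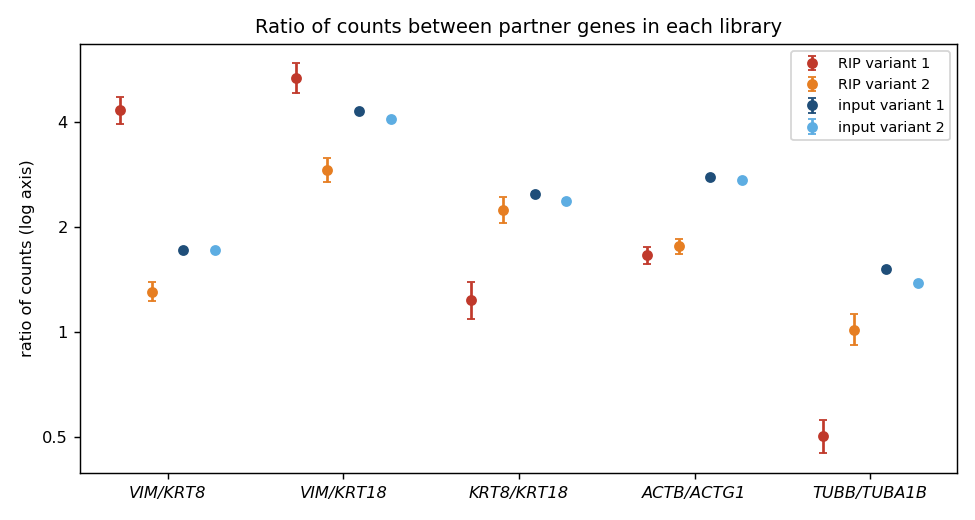
Ratio of counts between partner genes in RIP variant 1, RIP variant 2, input variant 1 and input variant 2, on a log axis. Points are single libraries and bars 95% exact counting intervals. The inputs lie close together in each ratio plotted here, and VIM over KRT8 is 4.32 in RIP variant 1 and 1.30 in RIP variant 2, on either side of the inputs.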

How the data were processed

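The authors deposited estimated counts per Ensembl ID under the header RawCount, and the differing totals show no normalization. Per the submitters' processing notes, HISAT2 2.1.0, featureCounts (Subread 2.0.0) and GRCh38.p13 were used. How strand and multi-mapped reads were handled was not given in the sources used here. Gene names are those given with the member IDs. The RefSeq table (59792 genes, GRCh38.p14) pairs 0 genes with an Ensembl ID, so wider epithelial, mesenchymal, cytoskeletal and other cell type lists, and the transfected gene, were not computed. It gave overlapping genes and pseudogenes by symbol. Members and lists were chosen with earlier results of these data known.

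Counts were rounded. RIP was tested against input with edgeR 4.0.16 (R 4.3.3, TMM, filterByExpr with minimum count 10, 2 residual degrees of freedom). A check on simulated data left most IDs equal between RIP and input, unlike these libraries, so it does not vouch for the calls here. The constructs are not replicates, so p-values reflect only how far these 4 libraries spread. The labels pair RIP and input by experiment (correlation of their differences -0.0045 over tested IDs), and the paired fit leaves 1 residual degree of freedom. Log2 ratios of single libraries used TMM-scaled CPM and a prior count of 2. Folds of CPM used library totals, with exact binomial intervals on rounded counts, which cover counting error only and are too narrow if each fragment was counted as 2 reads. Alternatives were other scalings, filters, DESeq2 1.42.0, the block, leaving out libraries and another prior count. All 10 genes are named.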

Additional observations from a re-analysis of the deposited data

How the results depend on the processing

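Each of the 9 genes lower in RIP kept its direction and its call under all 10 alternatives, with adjusted p-values up to 0.026 (LGALS1). CDH1 kept its direction under the 9 alternatives that tested it and lost its call without either RIP library (adjusted p = 0.10 and 0.099). With the construct as replicate block, the higher IDs numbered 8289 in place of 20595, and no call of the 10 genes changed. On library totals the lower IDs numbered 3213 in place of 6583. Fitting only IDs that reached 50 counts in each input gave 3418 higher and 3655 lower IDs, with 0 of the 10 genes higher, since CDH1 is not among them. Leaving out 1 library, with the lone library assumed to vary like the other fraction, gave 938 to 18394 higher IDs (938 without RIP variant 1, 1082 without RIP variant 2), 5275 to 6452 lower IDs, 0 to 1 of the 10 genes higher and 9 of them lower. The median log2 ratio of RIP over input of the 10 genes was -2.73 (variant 1) and -2.59 (variant 2) on library totals and -3.58 and -3.47 with DESeq2 size factors, and that of input variant 1 over input variant 2 was 0.060 and 0.11, against 0.082 as reported. The depth of the RIP libraries limits TMSB10, LGALS1 and CDH1 in RIP variant 1 most, with 225, 191 and 200 counts.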
